A study of Mus musculus with 9 samples.

Results

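The transcripts described here were the long noncoding RNAs (lncRNAs) with a high level in the trigeminal ganglion (TG) of mice with an inflamed temporomandibular joint. A row of the lncRNA table was a member where it had an Ensembl transcript identifier and a median of at least 5 FPKM (a level that divides the fragments of a transcript by its length and by the depth of its library) over the 9 libraries. Transcripts of Malat1, Neat1, Meg3, Rian, Mirg, Gas5, Pvt1, Gm45774 and the Snhg genes were left out. The rule found 85 members among 15657 rows, of which 15511 had an Ensembl identifier. In all, 121 rows reached the limit. Of these, 18 were transcripts predicted from the reads and 18 belonged to the genes left out. The members were chosen by their level, so their levels are given as a description without a test, and only differences between groups were tested.

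The study set 3 groups of male C57BL/6 wild-type mice, 8 weeks old, side by side. Each group had 3 libraries, and each library was pooled from the TG of 3 mice. The joint received 10 µl of saline in the control group, and its tissue was taken on day 3. The other groups received 10 µl of complete Freund's adjuvant (CFA) at 5 mg/ml, an emulsion that inflames the joint, and were taken on day 3 (CFA3D) or day 6 (CFA6D). The saline group has no day 6 counterpart here, so for CFA6D against saline the day and the adjuvant cannot be told apart.

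LncRNAs are long transcripts that are not known to be translated into a protein. Some act where they are made, on the chromatin or on the promoter of the gene beside them, and others act elsewhere by binding proteins or small RNAs. Some carry a microRNA hairpin or a small nucleolar RNA that is cut out of them. The TG holds the cell bodies of the sensory neurons of the face and jaw, with satellite glia around them and Schwann cells along their axons.

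The smallest steps of the FPKM values show what a single read pair was worth, which for a transcript of 1 kb was 0.0237 to 0.0333 FPKM across the libraries. The 79 members with an annotated length were thereby covered by a median of 39.1 to 23969 pairs, with a middle value of 399, and 5 of them by fewer than 100 pairs. The other 6, ENSMUST00000238357 among them, have no such estimate. The levels of all 11 sensory neuron markers were above 1 FPKM, with summed levels of 966 to 1267 FPKM in saline, 1232 to 1423 on CFA3D and 1221 to 1430 on CFA6D. Markers of the pituitary, a gland that lies close to the TG, summed to 10611 FPKM in saline replicate 3, to 1114 in CFA6D replicate 4, to 403 in CFA6D replicate 5 and to 8.89 to 99.8 in the other libraries. The summed level of 4 brain markers ranged from 81.2 FPKM in CFA6D replicate 4 to 490 in saline replicate 3. Saline replicate 2 had the highest sums of skeletal muscle markers (119 FPKM), brown fat markers (46.3) and erythroid markers (5789). Elsewhere these sums were 0.770 to 45.1, 5.36 to 9.69 and 1667 to 3862 FPKM. The part of such tissue in the differences from saline was not tested. In a bulk ganglion, fewer cells of a type and less RNA per cell cannot be told apart.

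Of the 85 members, 79 were found in the GENCODE M21 annotation (GRCm38), where they belonged to 65 genes. The other 6 are known only by their identifiers. As annotated, 50 were intergenic, 13 antisense, 8 processed transcripts, 5 sense intronic, 1 a retained intron and 1 from a bidirectional promoter. The label failed for 1 member, Gm47283 on the Y chromosome, which is annotated as protein coding. Single-exon transcripts made up 34.2% of the members (27 of 79) against 8.21% of the other annotated rows. Their median length was 1527 bases against 793 for the other rows. The place of the 79 was taken against coding genes other than a member's own. By this, 47 lay outside coding genes, Gm47283 among them, and 18 overlapped coding exons on the opposite strand. A further 6 began within 5 kb downstream of a coding gene on its own strand.

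The level fell off steeply. Only 12 members had a median of 20 FPKM or more and 26 reached 10 FPKM, which left 59 between 5 and 10. Together the members held 15.1% to 16.4% of the FPKM of annotated lncRNA transcripts in each library. Of all annotated lncRNA transcripts, 0.664% had a median of at least 5 FPKM, compared with 7.98% of the mRNA transcripts in the companion table. Just inside the limit stood Gm12840 at a median of 5.16 FPKM, Dubr ENSMUST00000186944 at 5.05 and 9530059O14Rik ENSMUST00000215759 at 5.02. Just outside it stood Gm16536 at 4.99, a further 9530059O14Rik transcript at 4.90 and Gm21887 at 4.90.

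**Figure D1:**
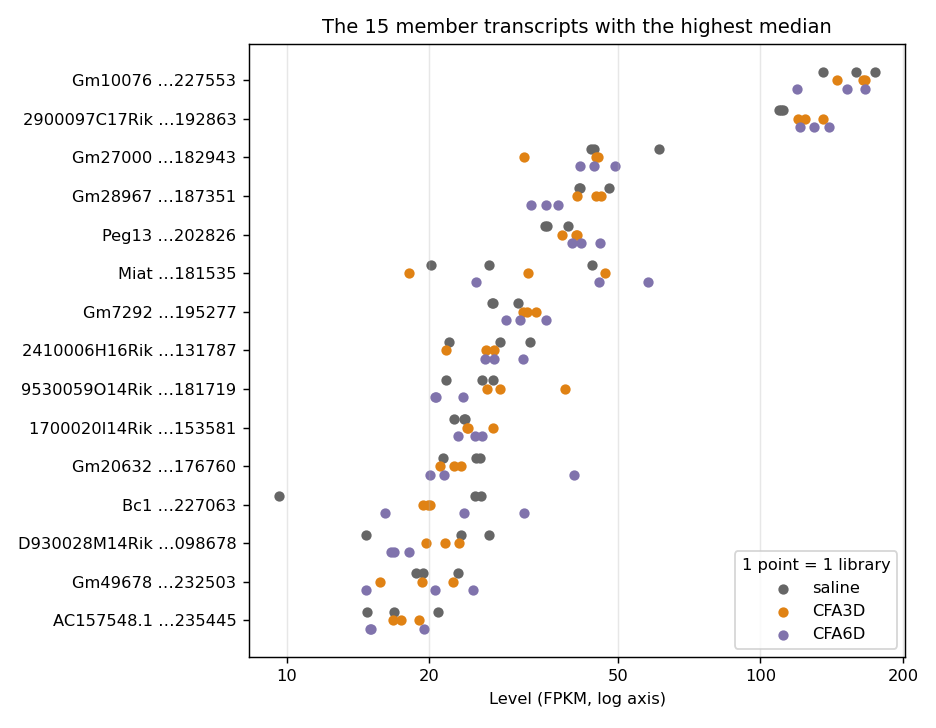
Levels of the 15 members with the highest median, on a log axis in FPKM, with 1 point for each of the 3 libraries in saline, CFA3D and CFA6D. Gm10076 and 2900097C17Rik stood above 100 FPKM in every library, while Miat spread widely in all 3 groups and Gm20632 had 1 high CFA6D library.

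The second highest member was 2900097C17Rik (chr2:156388065-156392979, minus strand, 1 exon), which RefSeq names Norad. Norad is known as a cytoplasmic RNA that binds Pumilio proteins, which repress messenger RNAs. Its level was 112, 110 and 110 FPKM in saline, 120, 124 and 135 on CFA3D, and 139, 121 and 130 on CFA6D. Every CFA library was above every saline library, yet the log2 fold changes of 0.19 on CFA3D and 0.23 on CFA6D missed the threshold (limma, adjusted p = 0.998 and adjusted p = 0.796). The Pumilio element, searched as TGTANATA on the RNA strand, occurred 11 times in its 4915 bases. Only 10.2% of the 15370 transcripts with a sequence held a match. A stretch of 150 bases with 2 of the elements in capitals, at positions 1509 to 1658 of the transcript, shows how this RNA looks:

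2900097C17Rik: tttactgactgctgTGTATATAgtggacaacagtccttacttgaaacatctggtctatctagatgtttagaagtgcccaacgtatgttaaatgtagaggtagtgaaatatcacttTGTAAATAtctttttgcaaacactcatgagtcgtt

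The same 150 bases stood letter for letter at positions 1482 to 1631 of Gm7292 on chromosome 6, a single-exon row with 2 members. Over 2525 aligned bases the longer Gm7292 transcript was 99.6% identical to 2900097C17Rik, and 85.9% of its 31-base words also occurred in other genes. Its level was 5.42, 5.16 and 5.06 FPKM in saline, 5.56, 6.46 and 6.84 on CFA3D, and 7.39, 5.99 and 6.62 on CFA6D. The shorter Gm7292 member ranged from 27.1 to 35.3 FPKM. Reads from these words can be assigned to either gene, so the 3 rows are not separate measurements of 3 RNAs.

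The same holds for other members near the top of the order. Gm10076 (chr14:105681829-105682211) led all members with 135, 159 and 175 FPKM in saline, 145, 165 and 166 on CFA3D, and 119, 153 and 166 on CFA6D, and the groups overlapped. Of its 31-base words, 82.4% also occurred in Rpl41, a gene of the large ribosomal subunit. Gm27000 on the X chromosome ranged from 31.7 to 61.2 FPKM, and 96.2% of its words occurred in Meg3, an imprinted lncRNA that the rule had left out under its own name. Over all 842 bases of Gm27000 the alignment to a Meg3 transcript held 841 identical bases. Across the annotated members, 2 had over 90% of their words in other genes, 8 had over 50% and 38 had none. The 120 bases of Gm27000 that end at its difference from Meg3, with the differing base in capitals, are shown beside the same stretch of Meg3 because all other letters are the same in both genes:

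Gm27000: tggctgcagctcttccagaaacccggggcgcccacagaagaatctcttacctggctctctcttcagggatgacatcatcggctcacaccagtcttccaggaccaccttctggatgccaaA

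Meg3: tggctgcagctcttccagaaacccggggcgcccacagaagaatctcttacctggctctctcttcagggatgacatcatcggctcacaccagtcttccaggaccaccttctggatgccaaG

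Gm28967 (chr6:125186361-125186641, minus strand) lay wholly inside Scarna10, a small Cajal body RNA of 325 bases, and shared 235 bases with annotated exons of Ncapd2 on the same strand. Its level was 47.9, 41.5 and 41.4 FPKM in saline, 41.0, 45.0 and 46.1 on CFA3D, and 32.8, 37.3 and 35.3 on CFA6D. All CFA6D libraries lay below all others. The log2 difference was −0.31 against saline (limma, Benjamini-Hochberg adjusted p = 0.709) and −0.32 against CFA3D (adjusted p = 0.821). Ncapd2, a condensin subunit, had a log2 difference of −0.06 on CFA6D (adjusted p = 0.917). Other short rows were Bc1, a dendritic RNA of rodent neurons made by RNA polymerase III, with 168 bases, and Gm28872 with 158. Bc1 was at 9.62, 25.7 and 24.9 FPKM in saline, 19.4, 20.1 and 19.9 on CFA3D, and 16.1, 31.7 and 23.6 on CFA6D, a spread within saline and CFA6D that covered every group mean. Its whole sequence is given, with no capitals, because 40.6% of its words also occurred in other genes and its middle is a run of adenines:

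Bc1: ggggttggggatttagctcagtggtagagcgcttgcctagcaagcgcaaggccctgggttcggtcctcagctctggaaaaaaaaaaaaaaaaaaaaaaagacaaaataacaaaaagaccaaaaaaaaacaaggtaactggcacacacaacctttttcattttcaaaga

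A pair of members is known for sites of the microRNA miR-7. 1700020I14Rik (chr2:119594303-119607502), which RefSeq names Oip5os1 and lists also as Cyrano, had the smallest spread of all members, with a coefficient of variation (CV) of 6.01% over the 9 libraries. It ranged from 22.5 to 27.2 FPKM. In it stood the closest complement to miR-7 among the annotated members, with 22 of 23 bases paired at positions 2935 to 2959. C230004F18Rik (chrX:61116386-61194162) runs opposite to Cdr1 and covers the sequence of the circular RNA known as Cdr1as, which is rich in miR-7 sites. Its 19658 bases held the seed match of miR-7 (GTCTTCC) 125 times, more than any other of the 15370 transcripts, of which 10.6% held at least 1. The median spacing of the matches was 18 bases. The microRNA is given with its seed, bases 2 to 8, in capitals, then the Oip5os1 site with its paired bases in capitals, then the 240 bases of C230004F18Rik that hold the most seed matches, 13, in capitals (positions 9144 to 9383):

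mmu-miR-7a-5p: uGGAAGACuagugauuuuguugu

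1700020I14Rik: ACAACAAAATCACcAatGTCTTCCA

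C230004F18Rik: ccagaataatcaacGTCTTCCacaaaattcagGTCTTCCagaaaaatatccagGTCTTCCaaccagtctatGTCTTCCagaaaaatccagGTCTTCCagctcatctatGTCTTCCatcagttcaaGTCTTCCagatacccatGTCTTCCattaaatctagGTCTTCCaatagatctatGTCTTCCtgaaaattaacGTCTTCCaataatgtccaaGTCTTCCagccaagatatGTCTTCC

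C230004F18Rik, named here after its values were seen, was at 3.67, 3.90 and 27.6 FPKM in saline, 14.7, 13.3 and 22.7 on CFA3D, and 19.3, 14.1 and 23.1 on CFA6D. Saline replicates 1 and 2 lay far below all others, while saline replicate 3 was the highest of the 9 and was also the library with the most pituitary marker RNA and the highest brain marker sum. Their part in that value was not tested. The log2 fold changes of 1.14 on CFA3D and 1.31 on CFA6D did not pass (limma, adjusted p = 0.998 and adjusted p = 0.779). Reads of the circle and of a linear transcript over the same bases cannot be told apart in this table.

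Further members carried microRNA hairpins on their own strand. Of 1005 hairpins in the RefSeq table, 5 lay in an exon of a member and 1, Mir138-1, lay 3280 bp downstream of 9530059O14Rik ENSMUST00000181719. C78859 held Mir138-2, so that both loci of miR-138, a microRNA of neurons, stood in or beside a member. Mir22hg held Mir22, H19 held Mir675, Gm26871 held Mir137 and Gm28119 held Mir125b-1. The mature sequences, seeds in capitals, show that none of these share a seed:

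mmu-miR-138-5p: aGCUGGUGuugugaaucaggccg

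mmu-miR-137-3p: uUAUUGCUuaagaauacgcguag

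mmu-miR-125b-5p: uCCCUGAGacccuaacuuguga

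mmu-miR-22-3p: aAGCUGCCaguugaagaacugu

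mmu-miR-675-3p: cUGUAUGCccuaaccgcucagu

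Of the 7 transcripts of 6 genes with a hairpin in or beside them, 3 had all CFA6D libraries below all CFA3D libraries. The same held for 14.1% of all members and for 6.73% of all lncRNA transcripts tested. With 7 transcripts, their share cannot be told apart from these. 9530059O14Rik ENSMUST00000181719 was at 27.2, 21.7 and 25.8 FPKM in saline, 26.5, 38.6 and 28.2 on CFA3D, and 23.6, 20.7 and 20.6 on CFA6D, a log2 difference between the days of −0.51 (limma, adjusted p = 0.821). Gm26871 was at 7.35, 5.26 and 5.48 FPKM in saline, 5.80, 6.44 and 7.78 on CFA3D, and 4.56, 5.30 and 5.05 on CFA6D, a difference of −0.41 (adjusted p = 0.852). Gm28119 was at 5.32, 4.68 and 6.84 FPKM in saline, 6.19, 5.75 and 6.51 on CFA3D, and 5.36, 4.47 and 4.13 on CFA6D, a difference of −0.40 (adjusted p = 0.852). Its values rest on a median of only 62.8 pairs. Against saline the CFA6D values of all 3 overlapped. As sums over the gene, Gm26871 differed between the days by −0.14 with overlapping libraries (adjusted p = 0.963) and 9530059O14Rik by −0.31 (adjusted p = 0.847), neither with an unadjusted p under 0.05. The call of 9530059O14Rik ENSMUST00000181719 was also lost without CFA3D replicate 2. C78859 (11.6 to 18.05 FPKM) and Mir22hg (4.89 to 6.69 FPKM) overlapped between all groups. The same was true of the 3 members of Mir124a-1hg, host of a neuronal microRNA, whose medians were 14.04, 9.96 and 6.68 FPKM. H19, an imprinted fetal transcript, ranged from 1.79 to 9.38 FPKM, both extremes within CFA3D.

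CFA3D was compared with saline to ask what the inflamed joint changed in the ganglion after 3 days. Of the 85 members, 1 passed an unadjusted p under 0.05, which is 1.18%, against 4.02% of the 5672 lncRNA transcripts tested. None reached both that p and a 2-fold change, against a background of 1.75%. The 1 was higher, where the background was 1.96% higher and 2.06% lower. After adjustment in limma no member was left, nor was any other lncRNA transcript. Of the members, 95.3% differed by less than 0.5 on the log2 scale, compared with 81.7% of all transcripts tested. The libraries of CFA3D and saline did not overlap in 10 members, 9 higher and 1 lower (11.8% against a background of 8.27%, or 4.32% higher and 3.95% lower).

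On CFA6D, 9 members (10.6%) had an unadjusted p under 0.05 against 6.73% of all transcripts tested, 6 of them higher and 3 lower, where the background was 3.23% higher and 3.51% lower. A single member also passed 2-fold, against a background of 2.52%. Again none passed after adjustment in limma, and the smallest adjusted p was 0.237. The summed level of the 5 macrophage markers, all above 1 FPKM, was 64.7 to 78.5 FPKM in saline, 52.9 to 94.9 on CFA3D and 37.5 to 61.9 on CFA6D, so that all CFA6D libraries lay below all saline libraries. Its part in the CFA6D differences was not tested. The libraries of CFA6D and saline did not overlap in 13 members, 9 higher and 4 lower (15.3% against a background of 11.8%, or 5.78% higher and 6.06% lower). With 3 libraries against 3, an exact permutation test of a single transcript cannot go below p = 0.1.

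**Figure D2:**
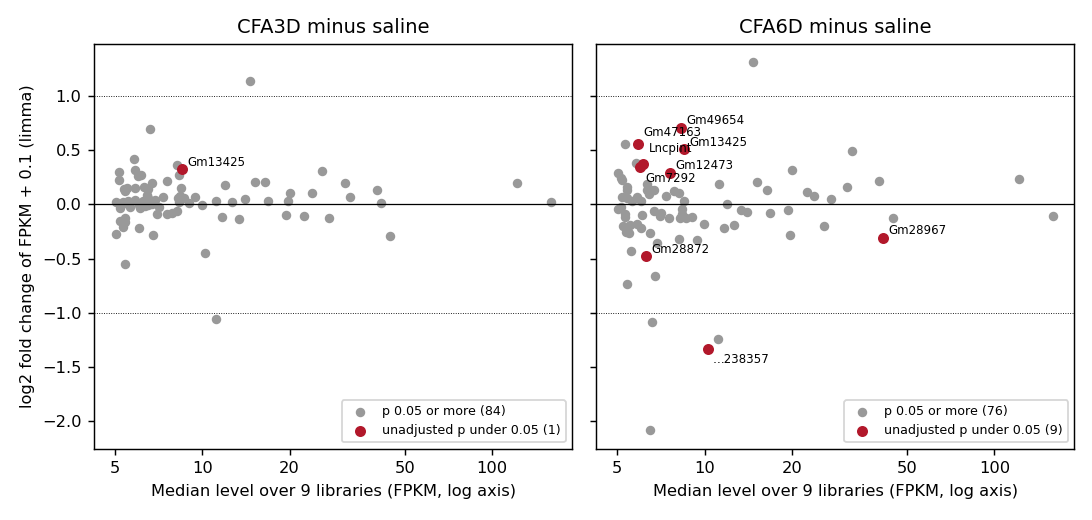
Log2 fold changes of the 85 members on CFA3D (left) and CFA6D (right) against saline, from limma on FPKM plus 0.1, against the median level on a log axis. Dotted lines mark 2-fold. Members with an unadjusted p under 0.05 are red and named, 1 on CFA3D and 9 on CFA6D, and all but Gm28967 and ENSMUST00000238357 had medians under 10 FPKM.

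Among the 6 members that were higher on CFA6D at an unadjusted p under 0.05 (limma), 3 lay beside a coding gene also higher at such a p. They were 3 of 36 pairs of a member and a coding gene, and 11.1% of all mRNA gene sums had such a p. Gm13425 (chr2:31633453-31640589, minus strand, 3 exons) starts in the first intron of Prdm12 and runs out past the start of that gene on the opposite strand, with 200 of its 5391 exon bases over Prdm12 exons. Prdm12 is a transcriptional regulator needed for the making of pain-sensing neurons. Gm13425 was at 6.57, 7.25 and 6.70 FPKM in saline, 8.99, 8.23 and 8.52 on CFA3D, and 10.5, 9.55 and 9.25 on CFA6D, with no overlap among the 3 groups. Its log2 fold change was 0.32 ± 0.12 (SE) on CFA3D (limma, adjusted p = 0.998), and on CFA6D it was 0.51 ± 0.12 (adjusted p = 0.351). It was the only member with an unadjusted p under 0.05 on both days, and both comparisons use the same saline libraries. The CFA3D call was lost with median ratio scaling, with quantile normalization, with the replicate number as a block, without CFA3D replicate 1 and without saline replicate 1.

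Prdm12, as the sum of its mRNA transcripts, was at 18.3, 18.9 and 17.4 FPKM in saline, 22.4, 24.7 and 23.0 on CFA3D, and 29.4, 25.8 and 27.2 on CFA6D. Its log2 fold change was 0.36 ± 0.08 on CFA3D (adjusted p = 0.997), and on CFA6D it was 0.59 ± 0.08 (adjusted p = 0.0729). The groups did not overlap in this gene either. The summed level of the 11 sensory neuron markers was also lower in saline replicates 2 and 3 (1166 and 966 FPKM) than in all 6 CFA libraries, while saline replicate 1 (1267 FPKM) lay among them. The part of this in the Gm13425 and Prdm12 values was not tested. The 300 bases around the start of Gm13425 (chr2:31640540-31640839, minus strand, 250 bases before the start and 50 from it) lay inside the Prdm12 intron, with 17 CpG pairs. They are shown, with the first exon of Gm13425 in capitals, because this member starts inside its neighbour:

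Gm13425 start: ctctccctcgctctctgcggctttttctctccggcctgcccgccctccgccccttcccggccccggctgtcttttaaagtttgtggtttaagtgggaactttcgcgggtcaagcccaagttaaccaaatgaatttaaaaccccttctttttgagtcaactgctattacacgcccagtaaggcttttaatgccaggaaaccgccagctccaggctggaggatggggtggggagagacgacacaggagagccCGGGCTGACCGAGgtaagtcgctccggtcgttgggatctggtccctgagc

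Gm47163 (chr10:79637856-79639520, plus strand, 1 exon) is annotated as sharing a bidirectional promoter with Shc2, an adaptor protein of neurons that binds activated receptor kinases, and their starts overlapped by 63 bases. It was at 5.09, 4.47 and 4.90 FPKM in saline, 5.88, 5.82 and 6.38 on CFA3D, and 8.16, 5.97 and 7.52 on CFA6D. All CFA libraries lay above all saline libraries. The log2 fold change was 0.32 ± 0.15 on CFA3D (limma, adjusted p = 0.998), and on CFA6D it was 0.56 ± 0.15 (adjusted p = 0.463). Shc2 was at 22.4, 20.9 and 16.9 FPKM in saline, 23.0, 22.5 and 24.4 on CFA3D, and 28.3, 23.4 and 25.1 on CFA6D, a log2 fold change of 0.36 ± 0.11 on CFA6D (adjusted p = 0.287).

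Gm49654 (chr12:81717830-81720052, minus strand, 1 exon) starts 958 bp past the end of Map3k9, on its strand. Map3k9 is a kinase upstream of JNK signalling. Gm49654 was at 7.12, 6.91 and 7.31 FPKM in saline, 8.08, 8.31 and 9.44 on CFA3D, and 13.4, 10.4 and 11.4 on CFA6D, with no overlap among the groups. Its log2 fold change was 0.27 ± 0.13 on CFA3D (limma, adjusted p = 0.998), 0.71 ± 0.13 on CFA6D (adjusted p = 0.237) and 0.44 between the days (adjusted p = 0.801). Map3k9 was at 12.6, 11.3 and 11.7 FPKM in saline, 14.1, 12.6 and 15.1 on CFA3D, and 19.2, 16 and 19.5 on CFA6D, with 0.61 ± 0.10 on CFA6D (adjusted p = 0.0992). A separate RNA and a longer end of Map3k9 cannot be told apart in these values.

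**Figure D3:**
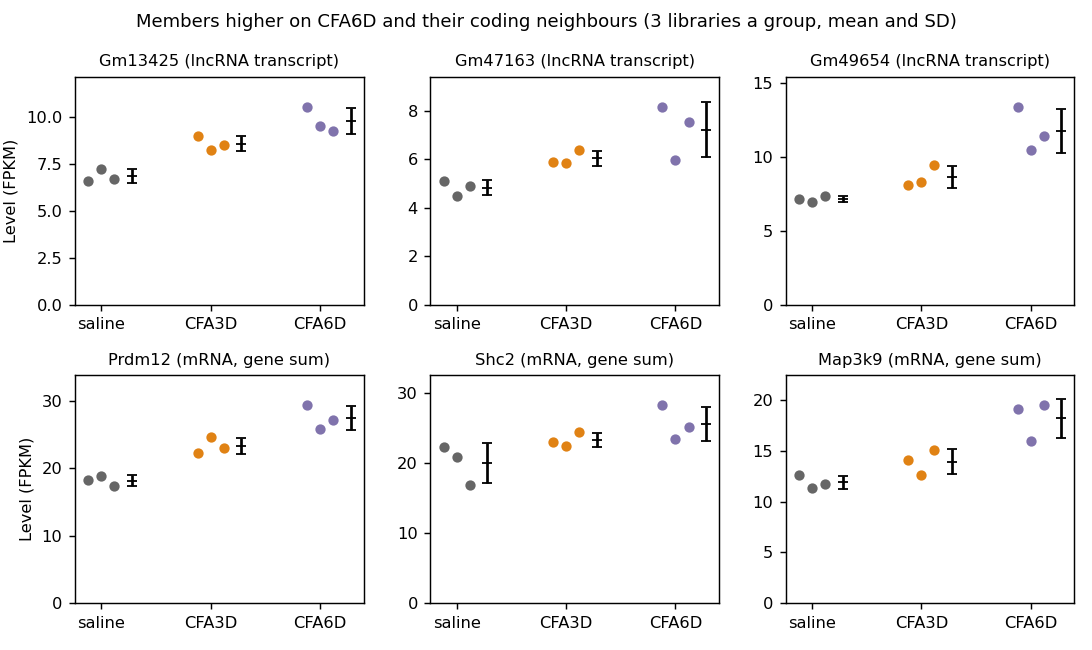
Levels in FPKM of Gm13425, Gm47163 and Gm49654 (top) and of the coding genes beside them (bottom), with 1 point for each of the 3 libraries a group and a bar for the mean and SD. In each panel the CFA6D libraries lay above the saline libraries.

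Other members also lay beside coding genes, and how alike the 2 sides of a pair were was not measured. Of 36 pairs of a member and a coding gene that overlapped it or ended just before it, covering 32 members, the member had an unadjusted p under 0.05 in 5 on CFA6D and the coding gene in 10. Only the 3 pairs above had both. Of all mRNA gene sums tested, 11.1% had such a p in that comparison. On CFA3D the coding gene had one in 1 pair, against 4.45% of all, and between the days in 2 pairs, against 7.39%. Gm12473, opposite to Npr2, the receptor of C-type natriuretic peptide on sensory axons, was at 6.61, 6.65 and 6.75 FPKM in saline, 8.16, 7.55 and 7.58 on CFA3D, and 7.64, 7.79 and 9.25 on CFA6D. Its log2 fold change on CFA6D was 0.29 (limma, adjusted p = 0.714), and that of Npr2 was 0.18 (adjusted p = 0.506). Peg13, an imprinted transcript in an intron of Trappc9, ranged from 35.1 to 39.2 FPKM in saline, 38.1 to 40.9 on CFA3D and 40.1 to 45.9 on CFA6D. Its log2 fold change on CFA6D was 0.22 (adjusted p = 0.809), against 0.33 for Trappc9 (adjusted p = 0.293). Trappc9 ranged from 17.2 to 22.4 FPKM in saline and from 23.0 to 25.2 on CFA6D. In both Peg13 and Trappc9, all CFA6D libraries lay above all saline libraries.

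The member that passed both thresholds on CFA6D was ENSMUST00000238357, 1 of the 6 without an annotation here. It was at 10.9, 12 and 13.5 FPKM in saline, 10.2, 10.4 and 6.49 on CFA3D, and 6.35, 4.55 and 3.67 on CFA6D. Its log2 fold change was −0.45 on CFA3D (limma, adjusted p = 0.998), −1.34 ± 0.24 on CFA6D (adjusted p = 0.237) and −0.89 between the days (adjusted p = 0.717). The remaining members with an unadjusted p under 0.05 on CFA6D were Gm28872, the longer Gm7292 transcript and a transcript of Lncpint. Gm28872 was at 8.23, 5.72 and 7.72 FPKM in saline, 6.79, 6.26 and 9.12 on CFA3D, and 4.31, 5.32 and 5.77 on CFA6D, so that saline and CFA6D overlapped (log2 fold change −0.48, adjusted p = 0.714). Its values rest on a median of 39.1 pairs, the fewest of the members with such an estimate. Gm7292 ENSMUST00000194706, given above with 2900097C17Rik, had a log2 fold change of 0.34 (adjusted p = 0.709). That call was lost as a gene sum, with quantile normalization and without CFA6D replicate 4 or 6 or saline replicate 2 or 3.

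The days were also compared with each other. Of the 85 members, 7 (8.24%) had an unadjusted p under 0.05 between CFA6D and CFA3D, against 5.84% of all transcripts tested, and none passed 2-fold as well, against 2.22%. After adjustment in limma no member was left, against 0.0176% of all transcripts. Gm49654 was the 1 that was higher on CFA6D (background 2.56%). The 6 lower ones (background 3.28%) were ENSMUST00000238357, 9530059O14Rik ENSMUST00000181719, Gm28967, Gm28872, Gm26871 and Gm28119. The call of Gm28967 was lost with no filter and without CFA3D replicate 2 or 3 or CFA6D replicate 4 or 6, and that of Gm28872 with quantile normalization and without CFA3D replicate 3 or CFA6D replicate 4 or 5. Libraries of both days lay apart in 15 members (17.6% against a background of 12.1%), 3 higher and 12 lower on CFA6D, the lower ones being 14.1% against a background of 6.73%.

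Several well-studied lncRNAs were members with small differences. Of 5 listed genes of X inactivation and X chromosome structure, only Firre had members. It ranged from 7.97 to 10.4 FPKM for the longer transcript and from 4.92 to 6.27 for the shorter. Of 6 imprinted genes on the list, Peg13 and H19 had members, and of 19 nuclear or neural ones 8 had. None of the 4 listed genes of small peptides had a member, and of 4 that overlap ribosomal RNA only Gm26917 had, with 6.04 to 9.81 FPKM. Zfas1, a host of small nucleolar RNAs, was at 5.92 to 8.39 FPKM, and Epb41l4aos at 3.85 to 7.83. Lncpint, a transcript induced by p53, had 5 members with medians of 5.42 to 8.15 FPKM. Lncpint ENSMUST00000229116 was at 5.20, 5.31 and 4.67 FPKM in saline, 6.47, 7.24 and 4.93 on CFA3D, and 6.14, 6.99 and 6.59 on CFA6D (log2 fold change 0.37 on CFA6D, limma, adjusted p = 0.73). The sum over the transcripts of Lncpint differed by 0.07 (adjusted p = 0.96).

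Of the 65 member genes, the sums of 2 had an unadjusted p under 0.05 on CFA3D, of 7 on CFA6D and of 4 between the days, where the background over all lncRNA gene sums was 3.76%, 7.74% and 5.85%. No sum of a member gene passed after adjustment in limma.

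Differences in spread between a transcript and its gene were common. The 85 members had a median CV of 17.1% over the 9 libraries, with a range of 6.01% to 80.1%. The mRNA transcripts with a median of at least 5 FPKM had a median CV of 13.9%. Of the member genes, 30 had several transcripts in the lncRNA table. In 25 of these the gene sum varied less than the most variable member, and the median CV went from 17.99% to 14.2%. Tug1 ENSMUST00000193809, a nuclear lncRNA, was at 6.78, 0.771 and 7.52 FPKM in saline, 6.86, 4.0 and 6.71 on CFA3D, and 5.29, 6.59 and 0.0315 on CFA6D, while the sum over Tug1 was 6.85 in saline replicate 2 and 7.87 in CFA6D replicate 6, also its lowest values, and 11.9 to 14.7 elsewhere. The 1500004A13Rik transcript ENSMUST00000183707 was listed at 0 in CFA6D replicate 4 and at 5.94 to 7.52 elsewhere, and the gene sum ranged from 24.5 to 28.6.

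**Figure D4:**
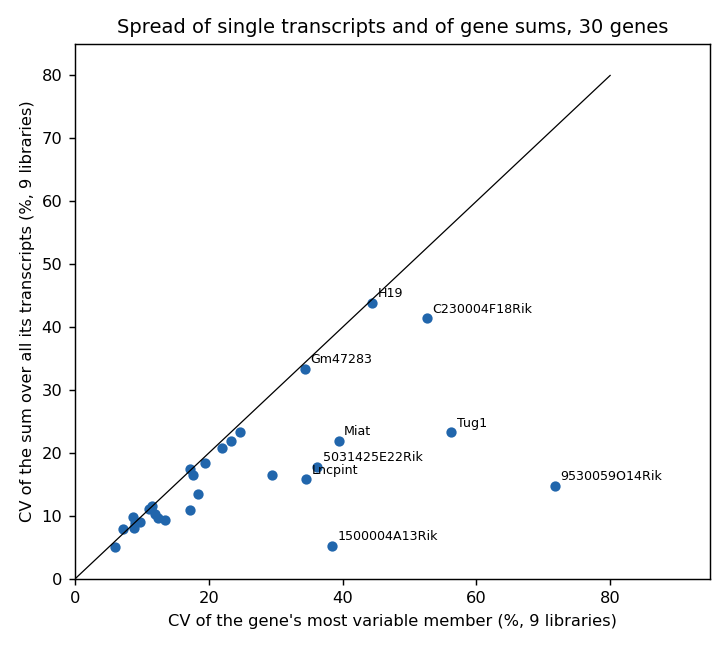
Coefficient of variation over the 9 libraries, in percent, of the most variable member of a gene (horizontal) and of the sum over all transcripts of that gene (vertical), for 30 genes with several transcripts. Points under the diagonal are the 25 genes whose sum varied less. 1500004A13Rik, 9530059O14Rik and Tug1 lay farthest below it, and H19 lay close to it.

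Miat, also called Gomafu, is a nuclear RNA of neurons. Its member ENSMUST00000181535 was at 20.2, 26.7 and 44.2 FPKM in saline, 32.3, 47.1 and 18.1 on CFA3D, and 25.1, 45.6 and 57.9 on CFA6D, and the groups overlapped. The sum over Miat ranged from 35.2 to 69.0 FPKM, with a log2 fold change of 0.39 on CFA6D (limma, adjusted p = 0.697). The 9530059O14Rik transcript ENSMUST00000215759 was at 7.38, 12.8 and 0.437 FPKM in saline, 6.99, 0.709 and 5.02 on CFA3D, and 3.41, 5.97 and 4.34 on CFA6D, whereas the sum over that gene ranged from 34.9 to 54.2. C230004F18Rik kept a CV of 41.4% as a sum, and H19 of 43.9%.

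**Figure D5:**
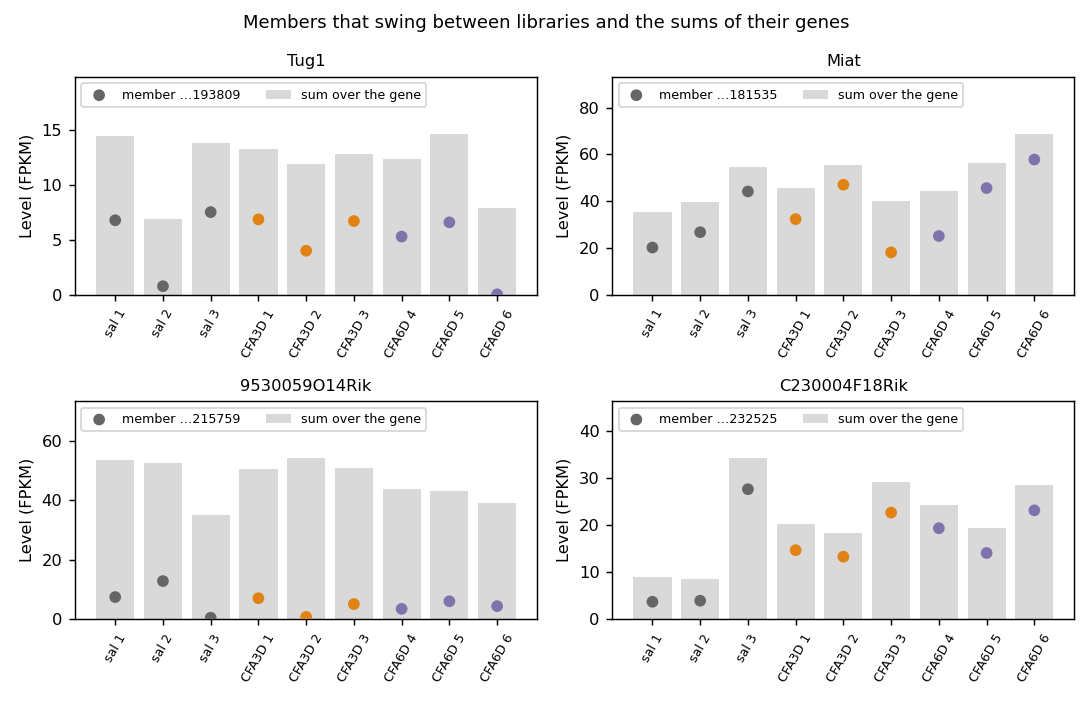
Levels in FPKM by library of a member (points) of Tug1, Miat, 9530059O14Rik and C230004F18Rik, and of the sum over all transcripts of the gene (bars). The Tug1 member was near 0 in CFA6D replicate 6 and low in saline replicate 2, while the sums of C230004F18Rik were lowest in saline replicates 1 and 2.

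Single libraries stood out in a few more members. ENSMUST00000238681, without an annotation here, was at 35.8 FPKM in CFA3D replicate 2 and at 6.84 to 11.3 in the other libraries, which gave the largest CV of all members, 80.1%. Gm20632 and Gm20628, opposite to histone genes on chromosome 3, were at 40.3 and 24.3 FPKM in CFA6D replicate 6 against 20.05 to 25.6 and 11.3 to 18 elsewhere. Gm17300, opposite to Rcc1, was at 28.8, 22 and 11.1 FPKM in saline, 4.79, 22.4 and 7.11 on CFA3D, and 4.76, 5.06 and 21.4 on CFA6D, and the groups overlapped. The 4 lowest values were all in CFA libraries, and the log2 differences from saline were −1.06 on CFA3D and −1.24 on CFA6D (limma, adjusted p = 0.998 and adjusted p = 0.823). Saline replicate 3 was the lowest library in 25 of the 85 members and the highest in 10, and saline replicate 1 the highest in 22. The median of the members' log2 ratios to their own medians was −0.13 in saline replicate 3 and 0.09 in saline replicate 1.

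The remaining 4 of the 15 highest members overlapped between saline and both CFA groups. 2410006H16Rik, which starts 2362 bp past Trpv2, ranged from 21.6 to 32.6 FPKM. D930028M14Rik, opposite to introns of Pou2f2, was at 26.8, 23.3 and 14.7 FPKM in saline, 19.7, 21.6 and 23.1 on CFA3D, and 16.8, 16.6 and 18.1 on CFA6D, all CFA6D libraries being below all CFA3D libraries (limma, adjusted p = 0.95). Gm49678 ranged from 14.7 to 24.8 FPKM and AC157548.1 from 14.8 to 20.8. Promoter windows were found in RefSeq for 22 member genes, with 25 windows. The palindrome CACGTG, searched on both strands, stood in 4 of the 25 windows, those of 9530059O14Rik, Firre, Ifi30 and Lncpint, and in 7.15% of all 32851 windows. TGACGTCA, the cyclic AMP response element, and the glucocorticoid receptor motif, both also searched on both strands, stood in no member window, against 1.79% and 0.475% of all windows. At shares this low, 25 windows are too few for their absence to say anything about the members.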

How the data were processed

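Total RNA of unilateral TG was sequenced in 9 libraries, each pooled from 3 mice. The values the authors deposited are FPKM of single transcripts, in 3 tables for lncRNA, mRNA and other noncoding RNA, with 0 sample columns left out. Per the labels, the submitters' notes name the mouse build mm8 and Bowtie 0.12.2, and a TruSeq RNA preparation kit that is not called stranded. The methods of the study name GRCm38 and a stranded kit after removal of ribosomal RNA, and do not mention FPKM. Which of these made the values is not given in the sources used here, so reads of overlapping genes on opposite strands may not be separated. FPKM values come without counts. Pairs per library were estimated from the smallest steps of the values, and cover counting error only.

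Transcript identifiers were matched to GENCODE M21 and gene levels were summed over transcripts. Sequences of transcripts are from GENCODE M21, and those of miRNAs, promoters and the genome from RefSeq (GRCm38.p6). Words of 31 bases were compared with all other annotated genes. Differences were tested on log2(FPKM + 0.1) with limma 3.58.1 in R 4.3.3, in 1 fit of the 3 groups over all lncRNA rows whose mean reached 0.1 FPKM, with Benjamini-Hochberg adjustment over all of them. Gene sums were fitted in the same way. A fold change on this scale understates changes of low transcripts. The code was tested on simulated data. The limit of an unadjusted p of 0.05 is that of the study, and the 2-fold limit was set here. The p-values measure the spread between pooled libraries.

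The transcripts named were the 15 with the highest median, the 5 with the smallest p in each comparison, members of lists of known lncRNAs, the 3 on either side of the limit and the 3 with the largest CV. Lists and markers were those of known lncRNAs and of cell types. Others named were chosen after their values were seen. The members and lists were chosen with earlier results of these data known.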

Additional observations from a re-analysis of the deposited data

Results flagged for a closer look

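The members that differed between CFA6D and CFA3D at an unadjusted p under 0.05 in limma were ENSMUST00000238357 with a log2 difference of −0.89, Gm49654 with 0.44, 9530059O14Rik ENSMUST00000181719 with −0.51, Gm28967 with −0.32, Gm28872 with −0.51, Gm26871 with −0.41 and Gm28119 with −0.40. Since both days are set against the same saline libraries, each value is also the difference between the effects of the days. Their Benjamini-Hochberg adjusted p ranged from 0.717 to 0.852, so none passed the correction.

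A predicted transcript of the lncRNA table that is no member, MSTRG.2605.1, was listed at 62081 FPKM in CFA6D replicate 4 and at 12.6 to 289 FPKM in the other 8 libraries, with 289, 18.3 and 26.2 in saline. In CFA6D replicate 4 the members nevertheless summed to 1138 FPKM, against 1159 to 1245 in the others.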

How the results depend on the processing

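Of 257 recomputed values for 15 named differences, 232 kept their direction and their side of an unadjusted p of 0.05 in limma, 22 kept the direction but lost that p and 3 gained it, and none changed direction. No member had an adjusted p under 0.05 in limma under any alternative. On CFA3D against saline, the 1 member with an unadjusted p under 0.05 became 0 with median ratio scaling, 0 with quantile normalization and 2 without the filter, and leaving out 1 library gave 0 to 3, with 0 without saline replicate 1, 2 without CFA6D replicate 5 and 3 without CFA3D replicate 2, CFA3D replicate 3 or saline replicate 3. The count with 2-fold was 0 to 1, with 1 without CFA3D replicate 2 or saline replicate 3. On CFA6D against saline, the 9 members became 5 to 11 without 1 library, with 5 without CFA6D replicate 4, saline replicate 1 or saline replicate 2, and the count with 2-fold was 1 to 2, with 2 without CFA6D replicate 5, CFA6D replicate 6 or saline replicate 3. Between the days, the 7 members became 4 with quantile normalization and 3 to 9 without 1 library, with 3 without CFA3D replicate 2 and 4 without CFA3D replicate 3 or CFA6D replicate 4. There the count with 2-fold was 0 to 2, with 1 without CFA3D replicate 3, CFA6D replicate 4 or CFA6D replicate 5 and 2 without CFA6D replicate 6. The causes were not tested. With a limit of 5 FPKM in the lowest library in place of the median, the members were 46 in place of 85.

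Saline and CFA3D share replicate numbers. The deviations of same-numbered libraries correlated at 0.03, −0.06 and 0.05 over transcripts, and those of libraries with unlike numbers at −0.09 to 0.06. These values cannot settle whether the numbers pair the samples, and the main fit did not pair them. With the replicate number as a block, 0 members had an unadjusted p under 0.05 on CFA3D. CFA6D carries other replicate numbers, so no paired analysis was possible because no number is shared. FPKM values without counts limit what can be said of low members, and 5 of the 79 members with an annotated length rest on fewer than 100 pairs.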
